A study of Mus musculus with 24 samples.

Results

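At the cap stage, the lingual and the buccal part of the molar mesenchyme were compared over all genes in 6 of the study's 24 RNA-seq libraries, the 3 libraries of the lingual part (Cap-L) and the 3 of the buccal part (Cap-B). The tissue came from mandibular first molar germs of wild-type ICR mouse embryos at E13, and neither group had been cultured or treated. Each germ had been split with a fine needle into a tongue-facing (lingual) and a cheek-facing (buccal) part, and the mesenchyme of each part was separated from the epithelium with dispase II. The remaining 18 libraries held the undivided mesenchyme at the cap stage (Cap-W) and at the bell stage, the lingual and buccal parts at the bell stage (E15; Bell-L, Bell-B), and the cap stage parts after 2 days of culture (Cap-L+2D, Cap-B+2D). Embryos came from 3 pregnant mice, and the study's methods name both triplicate sequencing and 2 biological replicates. The sources used here do not tie a library to an animal, so p-values measure the spread between libraries, which may be technical.

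A tooth germ forms where oral epithelium thickens and neural crest-derived mesenchyme condenses beneath it. At the cap stage the epithelium folds around the dental papilla, a signalling centre called the enamel knot forms in it, and the mesenchyme around the papilla becomes the dental follicle and the bone of the socket. FGF, BMP, Wnt and hedgehog signals pass between the layers. Homeobox and other patterning genes mark position in the jaw. The tongue side and the cheek side of a molar form different cusps, and only on the tongue side does further dental lamina grow in species that replace their teeth.

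The authors deposited counts of read pairs per gene without normalization, 27164279 to 35222686 per Cap-L library and 21663852 to 25103228 per Cap-B library. Levels are given as CPM, the count scaled to a common library size after TMM normalization, and 3 counts, used as the floor, came to 0.0852 to 0.138 CPM in these libraries, a limit that covers counting error only. Fold changes (log2 FC) divide the buccal by the lingual level, with their standard error (SE); those below 0 mark genes higher in the lingual part. A gene was called where edgeR's adjusted p fell under 0.05 and the log2 FC lay further than 0.5 from 0. Of 20653 genes tested, 1467 were called higher in the lingual part (7.1%) and 2144 higher in the buccal part (10.4%), together 17.5%. The gene lists set beside these shares were chosen with earlier results of these data known. Their shares describe the lists and are no test. The levels of the 3 lingual and 3 buccal libraries did not overlap for 52.4% of the genes tested, with a lingual group above for 28.5% and a buccal group above for 23.9%, so the absence of overlap alone says little here. The median log2 FC of all tested genes was -0.0056. Past an absolute log2 FC of 2 there were 163 lingual and 374 buccal calls, and past 3 there were 54 and 164. Cap-L replicate 2 stood apart from its group: the chi-square of counts per degree of freedom was 8.45 and 11.1 against the other lingual libraries, 2.47 between those, and 1.34 to 1.54 within Cap-B. Leaving it out gave 1485 lingual and 2085 buccal calls. Within Cap-B the chi-square lay close to that of counting error alone, so standard errors and p-values may hold little of the spread between animals. Among the 248 named genes that were called, the standard error of the log2 FC ran from 0.041 to 0.61, the largest adjusted p was 0.0224, and the levels of the 2 groups overlapped in 0 of them. With 3 libraries against 3, an exact two-sided permutation test of a single gene cannot go below p = 0.10, so the adjusted p-values rest on the spread shared across genes.

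**Figure D1:**
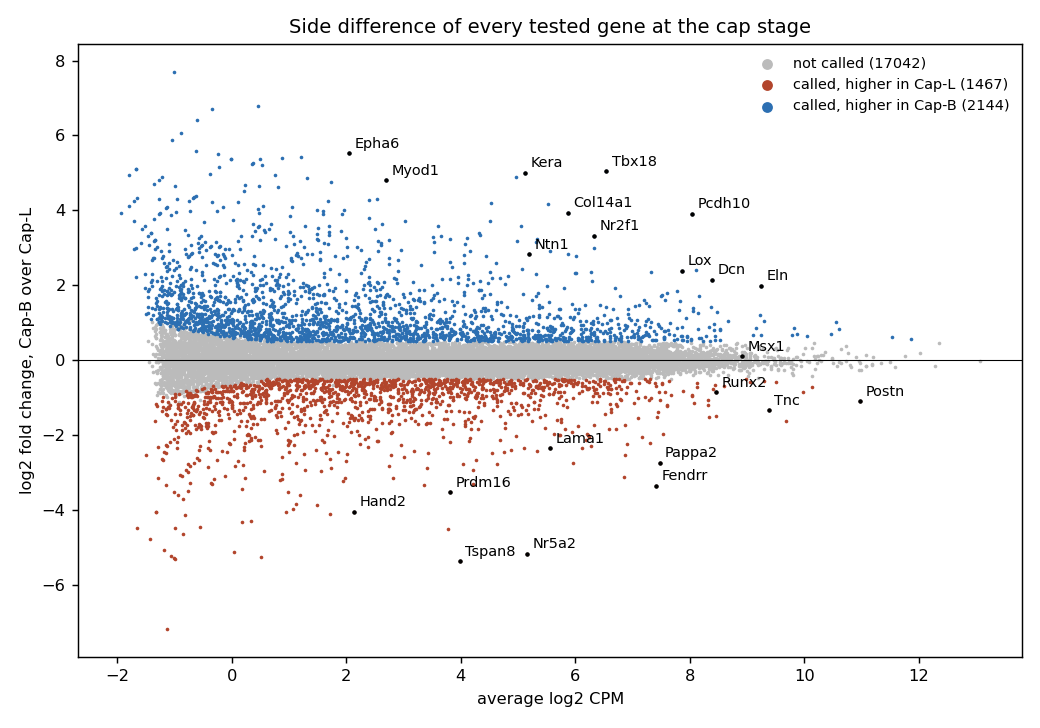
Log2 fold change (Cap-B over Cap-L, vertical) against average log2 CPM (horizontal) of the 20653 tested genes, each point a gene. Red points are the 1467 lingual calls, blue points the 2144 buccal calls, grey points genes not called and black points the labelled genes. Tspan8 and Nr5a2 lie lowest among the labelled genes, Epha6, Tbx18 and Kera highest, and Msx1 lies near 0.

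The labelled tissue, though not the side labels, was checked by its markers first. Msx1, a homeobox gene of dental mesenchyme, stood at 428, 509 and 438 CPM in the lingual and at 493, 473 and 483 CPM in the buccal libraries, which overlapped. Lhx6, a LIM homeobox gene of the same tissue, had 298 against 335 CPM (means, lingual against buccal, as in all such pairs here) and was not called, and neither was Bmp4, an early epithelial signal that the mesenchyme then makes, with 73.5 against 88.9 CPM. Twist1 and Prrx1, general markers of facial mesenchyme, stood at 187 against 206 and 1262 against 926 CPM and were not called. Each of these 5 genes was thus present in all 6 libraries. Epithelial genes remained in both: Krt14, a keratin of basal epithelium, had 137 against 79.8 CPM. Shh and Fgf4, which define the enamel knot, were filtered out for low counts.

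Genes with the largest difference toward the lingual part were a tetraspanin, nuclear and forkhead factors, a long non-coding RNA and a relaxin family receptor. Tspan8 (ENSMUSG00000034127; GRCm39 chromosome 10, 115652737 to 115685798), a membrane tetraspanin, had 28.1, 30.9 and 25.9 CPM in the lingual libraries and 0.587, 0.544 and 0.856 CPM in the buccal ones (log2 FC -5.37, SE 0.13, edgeR adjusted p = 5.62e-16). Nr5a2 (chromosome 1, 136770309 to 136888186), an orphan nuclear receptor known from pluripotent cells and liver, had 65.9, 64.4 and 65.7 CPM in the lingual and 1.9, 1.76 and 1.71 CPM in the buccal libraries (log2 FC -5.17, SE 0.079, edgeR adjusted p = 1.06e-18). All lingual libraries lay above all buccal ones in both genes, which the rule that named the largest calls (given below) required. Rxfp2, the receptor of insulin-like peptide 3, had 26.2, 21.5 and 24.7 against 0.587, 1.51 and 0.973 CPM (log2 FC -4.52, SE 0.16, edgeR adjusted p = 6.21e-14). Prdm16, a zinc finger factor whose loss causes cleft palate in mice, had 24.2, 21.4 and 26.2 against 1.99, 2.22 and 1.95 CPM (log2 FC -3.52, SE 0.11, edgeR adjusted p = 1.81e-14). Hand2, a bHLH factor that patterns the distal and ventral jaw, is a further gene of this kind at a lower level, 7.32 against 0.43 CPM, and 19.6% of its exon bases lie in other genes' exons. The rule that named the 15 largest lingual calls (average log2 CPM 2 or more, no overlap between groups) also gave, among others, Fendrr, Foxf1, the adenylyl cyclase gene Adcy8 (31.4 against 3.13 CPM), Cdhr1, Ctxnd1, the synapse organizer gene Cbln1 (17.2 against 2.32), the serotonin receptor gene Htr7, the sialyltransferase gene St6gal2 (40.9 against 5.84) and the lncRNA 9130024F11Rik (26.8 against 3.88). Their log2 FCs ran from -3.35 to -2.77.

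The largest differences toward the buccal part were held by a T-box factor, matrix genes, adhesion and guidance receptors, and muscle genes. Tbx18 (ENSMUSG00000032419; GRCm39 chromosome 9, 87584853 to 87613313), a T-box factor of several mesenchymal tissues, had 5.11, 5.37 and 5.97 CPM in the lingual and 175, 180.0 and 179.5 CPM in the buccal libraries (log2 FC 5.05, SE 0.061, edgeR adjusted p = 7.01e-20); 20.6% of its exon bases lie in other genes' exons, and the counting left out read pairs that touched more than 1 gene. Kera (chromosome 10, 97442741 to 97449554), which encodes the small leucine-rich proteoglycan keratocan, had 2.04, 2.03 and 2.44 against 65, 72.2 and 67.8 CPM (log2 FC 5.01, SE 0.082, edgeR adjusted p = 2.08e-18). Epha6, an ephrin receptor gene, had 0.143, 0.25 and 0.141 against 7.31, 9.42 and 8.87 CPM (log2 FC 5.53, SE 0.21, edgeR adjusted p = 2.32e-13). The 3 genes were thus close to the floor or at a few CPM in the lingual part and well above it in every buccal library. Pcdh10 (chromosome 3, 45332833 to 45390058), a protocadherin gene, combined a large fold with a high level: 31.5, 30.2 and 35.9 CPM in the lingual and 490.2, 477 and 477 CPM in the buccal libraries (log2 FC 3.91, SE 0.061, edgeR adjusted p = 1.06e-18). Col14a1, a collagen gene of tendon and fascia, had 7.26, 7.34 and 7.17 against 109, 109 and 109 CPM (log2 FC 3.93, SE 0.055, edgeR adjusted p = 4.11e-19). Grik3, a kainate receptor subunit gene, had 2.15 against 61.3 CPM, the vasopressin receptor gene Avpr1a 0.532 against 10.6, the potassium channel gene Kcna4 1.23 against 15.7, the glutamate receptor accessory gene Shisa9 0.766 against 10.3 and the albumin gene Alb 0.599 against 11.6. The other 5 of the 15 largest buccal calls, Myod1, Myh3, Actc1, Ttn and Mybpc1, are skeletal muscle genes.

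**Figure D2:**
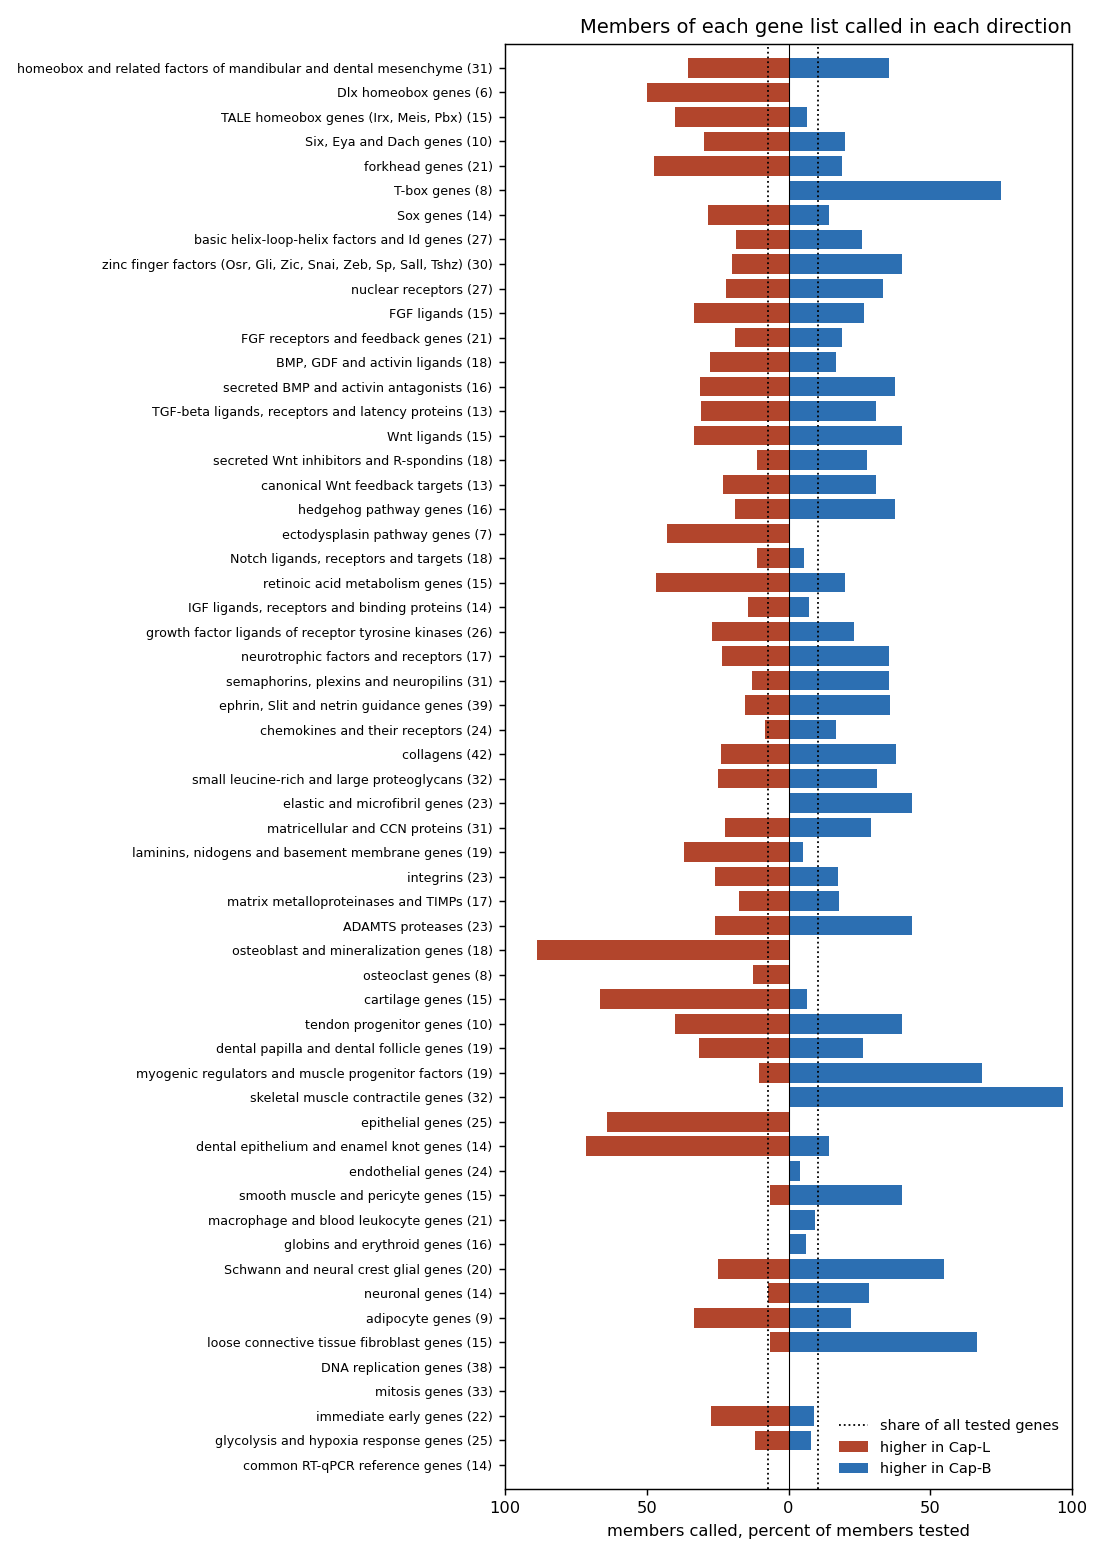
Percent of the tested members of each gene list called higher in the lingual part (red, to the left) and in the buccal part (blue, to the right), with the number tested in parentheses; lists with 6 or more tested members are drawn. Dotted lines mark the shares among all tested genes, 7.1% and 10.4%. The lists were chosen with earlier results of these data known. Osteoblast genes reached 88.9% to the left and muscle contractile genes 96.9% to the right, while the DNA replication, mitosis and RT-qPCR reference lists had no bar.

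Among transcription factors of mandibular and dental mesenchyme, 11 of 31 tested members were lingual calls and 11 were buccal calls, with a median log2 FC of 0.023. Alx4, a homeobox gene of the facial midline, had 100.3, 93.6 and 103 CPM in the lingual and 28.4, 29.3 and 28.4 CPM in the buccal libraries (log2 FC -1.76, SE 0.053, edgeR adjusted p = 6.71e-15), and its relative Alx1 8.64 against 1.91 CPM. The jaw factor Gsc had 17.3 against 11.1 CPM (log2 FC -0.62). On the buccal side stood genes that are known to act in molar mesenchyme: Pax9 with 264, 264 and 274 against 409.7, 408 and 411 CPM (log2 FC 0.64, SE 0.042, edgeR adjusted p = 5.76e-10), Lhx8 with 219, 225 and 222 against 404, 408 and 405 CPM (log2 FC 0.89, SE 0.041, edgeR adjusted p = 3.51e-12) and Shox2 with 79.8, 76.5 and 74.8 against 222, 223 and 208 CPM (log2 FC 1.52, SE 0.048, edgeR adjusted p = 1.1e-14). The libraries of the 2 sides did not overlap in any of these 3 genes, as for 52.4% of all tested genes. Barx1, the molar-field homeobox gene, had 89.1 against 124 CPM and lay at the limit on the fold (log2 FC 0.50): it was not called, but was without Cap-L replicate 2 (0.56) or Cap-B replicate 1 (0.51). Pax7, a satellite cell and craniofacial factor, was at 0.0715, 0.111 and 0.0706 CPM in the lingual libraries and at 3.52, 3.72 and 4.09 CPM in the buccal ones. Cap-L replicates 1 and 3 lay under the floor of 3 counts, and replicate 2 just above it.

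The Dlx genes, whose nested expression patterns the jaw along its proximal-distal and upper-lower axes, were called on the lingual side for 3 of 6 members and on the buccal side for 0. Dlx5 and Dlx6, which lie next to each other on chromosome 6, had log2 FCs of -0.58 and -0.80, and Dlx3 one of -1.06. Dlx1, at 101 against 96.3 CPM, had a log2 FC of -0.042. Among the TALE homeobox genes, 6 of 15 were higher in the lingual part. They were Irx1 (21.4 against 4.66 CPM), Irx2 (14.1 against 2.57), Irx3 (18.2 against 6.08), Irx5 (15.5 against 5.53), Meis2 (77.9 against 25.8) and Pbx3 (87.1 against 48.1). The 4 Iroquois genes sit in pairs on chromosome 13 (Irx1 and Irx2, log2 FCs -2.18 and -2.43) and chromosome 8 (Irx3 and Irx5, -1.56 and -1.47), and the genes of a pair had similar values. The sole buccal call was Pknox2, at 4.82 against 14.7 CPM (2 or 3 genes where any 1 library was left out). Among sine oculis, Eya and Dach genes, partners in a conserved network, Six2 (261, 284 and 257 against 114, 113 and 110.3 CPM; log2 FC -1.23, SE 0.047, edgeR adjusted p = 2.18e-13), Eya4 and Eya2 were lingual, while Eya1 (59.2 against 114 CPM) and Dach1 (18.5 against 62.6 CPM) were buccal. Of 39 Hox genes, which are silent in the jaw's neural crest, 1 had enough counts to be tested: Hoxd8, at 0.107, 0.195 and 0.177 CPM in the lingual and 1.71, 1.34 and 1.05 CPM in the buccal libraries (2 calls without Cap-B replicate 3). There were 4 Hox calls with no filter on low counts or in a fit of all 24 libraries. Under the stricter filter there were 0.

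Forkhead genes were called on the lingual side for 10 of 21 tested members and on the buccal side for 4. Foxf1 (ENSMUSG00000042812; chromosome 8, 121811125 to 121814883), a hedgehog-responsive mesenchymal factor, had 201, 207 and 194 CPM in the lingual and 22.7, 24.1 and 21.5 CPM in the buccal libraries (log2 FC -3.12, SE 0.054, edgeR adjusted p = 4.21e-18). Its divergently transcribed neighbour Fendrr (chromosome 8, 121781621 to 121809849), a long non-coding RNA, had 303, 293 and 311 against 28.9, 30.2 and 28.4 CPM (log2 FC -3.35, SE 0.052, edgeR adjusted p = 1.06e-18). The ends of these genes lie 1.28 kb apart, and Foxc2 and Foxl1 follow within a span of 75.8 kb. Foxc2, at 1.24 against 0.613 CPM, and Foxl1, at 0.535 against 0.0269 CPM, were lingual calls too, so that each of these 4 neighbours was higher in the lingual part. Foxl1 rests on few counts: it reached 0, 0.0418 and 0.0389 CPM in the buccal libraries, at or under the floor in 3 of them. Elsewhere in the genome, Foxf2, the Foxf1 paralog, had 29.2 against 9.39 CPM, Foxp2 14.9 against 5.65 CPM, Foxp4 131 against 80.7 CPM, Foxd1 2.87 against 0.576 CPM and Foxi3, an ectodermal dysplasia gene, 4.14 against 0.767 CPM. Buccal forkhead calls were all low, the highest being Foxd3, a neural crest factor, with 0.975 against 2.38 CPM.

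T-box genes showed the opposite pattern, with 6 of 8 tested members called on the buccal side and 0 on the lingual side. Their summed level was 301 to 311 CPM in the lingual and 869 to 877 CPM in the buccal libraries. Tbx15, a factor of skeletal and dermal mesenchyme, had 52.3, 50.5 and 51.9 against 268, 254 and 261 CPM (log2 FC 2.37, SE 0.046, edgeR adjusted p = 1.79e-17). Tbx3 had 66.3, 65.7 and 65.9 against 144, 141 and 143 CPM (log2 FC 1.14, SE 0.043, edgeR adjusted p = 1.62e-13) and its close relative Tbx2 142 against 244 CPM (log2 FC 0.81). Tbx22, the X-linked cleft palate gene, at 21.5 against 26.6 CPM, and Tbx1 at 14.2 against 13.4 CPM were not called.

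Nuclear receptors were split, with 6 lingual and 9 buccal calls among 27. On the buccal side stood the COUP-TF pair: Nr2f1 had 13.1, 15.8 and 14.9 against 149, 143 and 141 CPM (log2 FC 3.33, SE 0.059, edgeR adjusted p = 5.14e-18) and Nr2f2 42.3, 43.8 and 41.2 against 158, 163 and 158 CPM (log2 FC 1.94, SE 0.046, edgeR adjusted p = 2.46e-16). Rora had 27.7 against 64.4 CPM. On the lingual side, beside Nr5a2, Nr4a2 had 56.1 against 22.4 CPM and Rorb 6.23 against 0.936 CPM. Zinc finger genes gave 6 lingual and 12 buccal calls among 30. The odd-skipped genes, of which Osr2 limits the molar field on the lingual side in mice, were both buccal calls: Osr2 with 224, 241 and 222 against 448, 432 and 436 CPM (log2 FC 0.96, SE 0.045, edgeR adjusted p = 3.37e-12) and Osr1 with 80.7, 87 and 80.5 against 225, 221 and 219 CPM (log2 FC 1.45, SE 0.045, edgeR adjusted p = 1.04e-14). The study's in situ hybridization showed Osr2 in the lingual mesenchyme, while its sequencing listed Osr2 among buccal genes. The reason was not tested here. Prdm6 (8.68 against 36 CPM), Tshz2 (22.8 against 59.2), Trps1 (136 against 231) and Bcl11a (83.6 against 148) were further buccal calls. Klf4 (121 against 70.1 CPM), Snai1 (29.7 against 15) and Sp5 (5.45 against 0.979), a Wnt target, were lingual. Gli1 and Gli3, effectors of hedgehog signalling, were not called. Among Sox genes, the chondrogenic factors Sox9 (21.3 against 12.2 CPM), Sox5 (4.88 against 2.94) and Sox6 (51.4 against 23.2) with Sox2 (4.44 against 2.16) were lingual, and Sox10 (4.3 against 12.6), the glial factor, was buccal, as was Sox8 at the limit on the fold (log2 FC 0.52, and 0.47 without Cap-L replicate 1 or 0.50 without Cap-B replicate 3, where it was not called). Among bHLH and Id genes, 5 of 27 were lingual, with Id2 at 121 against 69.4 CPM and Bhlhe40 at 31 against 15.9, and 7 were buccal, with Tcf4 at 205 against 487 and Bhlhe22 at 0.487 against 7.67.

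**Figure D3:**
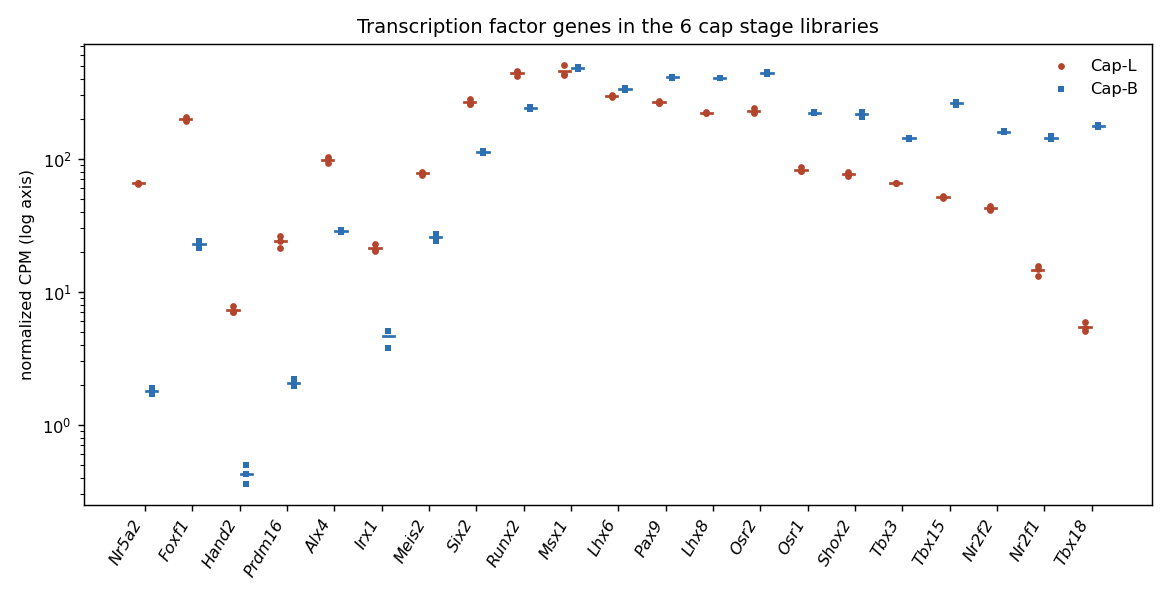
Normalized CPM on a log axis of 21 transcription factor genes in each Cap-L library (red circles) and Cap-B library (blue squares), with the mean of each group as a line. CPM is not scaled for gene length, so sides are compared within a gene. From Nr5a2 to Runx2 the lingual libraries lie above, from Pax9 to Tbx18 the buccal ones, and for Msx1 the groups overlap.

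Signals were called on both sides in most families. FGF ligands gave 5 lingual and 4 buccal calls among 15 tested members. Fgf20, a product of the enamel knot, had 3.72, 4.03 and 3.39 against 0.451, 0.67 and 0.311 CPM (log2 FC -2.94, SE 0.22, edgeR adjusted p = 2.82e-09) and Fgf3, made by knot and papilla, 6.08 against 1.59 CPM, both lingual. Fgf18 had 12.7, 13.5 and 13.8 against 38.1, 39.5 and 37.2 CPM (log2 FC 1.54, SE 0.06, edgeR adjusted p = 2.75e-13) and Fgf9 0.679 against 2.47 CPM, both buccal, and the papilla ligand Fgf10, at 27.2 against 25 CPM, was not called. Among receptors and feedback genes, Fgfr2 (220.4 against 121 CPM), Spry4 (68.4 against 33.3) and Etv4 (35.7 against 19.1) were lingual, Il17rd (36.9 against 93.9) and Etv1 (7.91 against 21.8) were buccal, and 13 of 21 were not called, Dusp6 and Fgfr1 among them. The 38.1% called in this list stood beside 17.5% of all tested genes. The ectodysplasin genes, defective in ectodermal dysplasia with missing teeth, were lingual as a ligand, receptor and adaptor: Eda had 27.1, 26.5 and 30.7 against 12.5, 10.8 and 13 CPM (log2 FC -1.19, SE 0.079, edgeR adjusted p = 6.68e-10), Edar 6.39 against 2.04 CPM and Edaradd 13.7 against 4.08 CPM. None of the 7 tested members of that list was called on the buccal side.

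BMP, GDF and activin ligands gave 5 lingual and 3 buccal calls among 18. Inhba, the activin A subunit that molar mesenchyme makes, had 199, 175 and 204 against 96.7, 96.5 and 93.5 CPM (log2 FC -0.99, SE 0.056, edgeR adjusted p = 6.7e-11), and Bmp2 had 32.6 against 16.7 and Gdf10 115 against 68.8 CPM. Fst, the activin antagonist follistatin, differed in the same direction and more, with 64.6, 65.2 and 64.3 against 12, 11.6 and 11.7 CPM (log2 FC -2.43, SE 0.055, edgeR adjusted p = 1.5e-16). The buccal antagonists included Fstl1 (696 against 1118 CPM), Twsg1 (192 against 289), Htra1 (9.9 against 32.6), Bmper (22.9 against 37.4) and Chrd (17.9 against 31.3). In total 5 antagonists were lingual and 6 buccal of 16. The TGF-beta ligands divided: Tgfb3 had 169.5, 179 and 173 against 78.4, 77.4 and 77.9 CPM (log2 FC -1.13, SE 0.043, edgeR adjusted p = 1.97e-13), toward the lingual part, and Tgfb2 28.5, 29.6 and 30.2 against 125, 129 and 121 CPM (log2 FC 2.11, SE 0.049, edgeR adjusted p = 1.93e-16), toward the buccal part. Of the latent TGF-beta binding proteins, Ltbp4 was lingual (205 against 125 CPM) and Ltbp1 buccal (177 against 469 CPM).

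Wnt ligands gave 5 lingual and 6 buccal calls among 15. Wnt10b, an epithelial tooth germ ligand, had 14, 16 and 15.1 against 5.24, 4.31 and 4.36 CPM (log2 FC -1.68, SE 0.095, edgeR adjusted p = 6.4e-11), and Wnt2, Wnt2b, Wnt3a and Wnt10a were lingual at 17.8 against 8.93, 7.23 against 4.41, 1.99 against 0.767 and 2.98 against 1.86 CPM. Wnt5a, the non-canonical ligand of the mesenchyme, had 121, 117 and 124 against 202, 207 and 201 CPM (log2 FC 0.78, SE 0.044, edgeR adjusted p = 6.6e-11), and its relative Wnt5b 8.79 against 17.7, Wnt16 4.78 against 21 and Wnt11 15.2 against 23.4 CPM were buccal as well. The R-spondins, which amplify Wnt signals, stood on different sides, Rspo3 (40.6 against 14.8 CPM) lingual and Rspo2 (12.8 against 28.9 CPM) buccal. Frzb, a secreted inhibitor, was lingual (339.9 against 173 CPM), and Apcdd1 (132 against 261), Sfrp1 (278 against 395) and Sfrp5 (0.573 against 6.18) were buccal. Of the feedback targets, Axin2 at 125 against 151 CPM was not called, Tcf7 was lingual (54.6 against 25.8 CPM), and Lef1 (70.2 against 114 CPM) was buccal.

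Of the hedgehog genes, the receptor gene Ptch1 (267, 238 and 284 against 139, 138 and 132 CPM; log2 FC -0.92, SE 0.058, edgeR adjusted p = 2.63e-10), which is transcribed in response to the signal, was lingual, as was the ligand gene Ihh. The co-receptors Cdon (93.4, 84.7 and 99.8 against 275, 279.9 and 274 CPM; log2 FC 1.60, SE 0.055, edgeR adjusted p = 4.58e-14), Gas1 (71.9 against 197 CPM) and Boc (103 against 208 CPM), which the signal is known to repress, were buccal, with Disp1 and Dhh, and so was Hhip (4.82 against 14.4 CPM), a decoy receptor that the signal induces. Gli1, another target of the signal, was at 123 against 136 CPM with a log2 FC of 0.17.

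Retinoic acid genes gave 7 lingual and 3 buccal calls among 15. The degrading enzymes Cyp26b1 (249, 242 and 259 against 86.4, 83.4 and 87.9 CPM; log2 FC -1.52, SE 0.047, edgeR adjusted p = 9.05e-15), Cyp26a1 (4.59 against 0.572 CPM) and Cyp26c1 (1.68 against 0.302 CPM), the carrier Crabp1 (114, 127 and 111 against 27.8, 28 and 28.4 CPM; log2 FC -2.04, SE 0.055, edgeR adjusted p = 1.41e-15) and the synthesis enzyme Aldh1a2 (104 against 47.3 CPM) were lingual. The synthesis enzyme Aldh1a3, at 9.15 against 18.3 CPM, was buccal. In the IGF list, Pappa2, a protease that frees IGF from its binding proteins, had 315, 259 and 328 against 43.9, 46.1 and 43.2 CPM (log2 FC -2.74, SE 0.076, edgeR adjusted p = 2.02e-15), and 11 of 14 members, Igf1 included, were not called. The 21.4% called in the IGF list was near the 17.5% of all tested genes. The Notch list was close to the background, with 2 lingual and 1 buccal calls among 18: the non-canonical ligand Dlk1 had 437, 514 and 456 against 168, 155 and 160.3 CPM (log2 FC -1.52, SE 0.055, edgeR adjusted p = 9.19e-14), Hes1 was lingual (log2 FC -0.58, and -0.49 without Cap-L replicate 2, where it was not called) and Lfng buccal (2 buccal calls without any 1 of 4 libraries), and Notch1 to Notch4 were not called.

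Guidance genes were called more on the buccal side. Ephrin, Slit and netrin genes gave 14 buccal and 6 lingual calls among 39, and semaphorin, plexin and neuropilin genes 11 and 4 among 31. Ntn1, the axon attractant netrin 1, had 9.05, 8.4 and 10.1 against 63.4, 63.3 and 64.5 CPM (log2 FC 2.83, SE 0.064, edgeR adjusted p = 1.67e-16), and its receptors Dcc (12.8 against 36.5 CPM) and Unc5c (29.4 against 73.9 CPM) were buccal too. The repellent Slit2 had 155, 140.2 and 161 against 317, 327 and 328 CPM (log2 FC 1.11, SE 0.053, edgeR adjusted p = 4.46e-12), with its receptor Robo2 (109 against 198 CPM) on the same side. Nrp1, the semaphorin 3A receptor, was buccal (66.6 against 169 CPM) and Nrp2 lingual (416 against 259 CPM). Lingual receptors included Epha3 (235, 206 and 236 against 55, 53.6 and 52.4 CPM; log2 FC -2.05, SE 0.058, edgeR adjusted p = 2.69e-15) and Epha7 (131 against 47.4 CPM), and Ephb3 was buccal (151 against 369 CPM). The nerve growth factor receptor Ngfr had 112, 112 and 118 against 30.1, 25.9 and 30.0 CPM (log2 FC -1.97, SE 0.057, edgeR adjusted p = 4e-15), while Ntrk2 (82.7 against 152 CPM), Gfra2 (85.5 against 177 CPM) and the ligand Gdnf (4.09 against 8.14 CPM) were buccal. Chemokine genes were mostly not called (18 of 24), but Cxcl12, the ligand of Cxcr4, had 133, 131 and 132 against 424, 429.7 and 428 CPM (log2 FC 1.72, SE 0.043, edgeR adjusted p = 4.98e-16), and Cxcl14 51.2 against 165 CPM.

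Among matrix genes, the calls of the elastic and the basement membrane lists lay mostly on a single side and those of the other classes on both. Elastic and microfibril genes were called on the buccal side for 10 of 23 tested members and on the lingual side for 0. Eln, which encodes elastin, had 228, 255 and 241 against 968, 901 and 947 CPM (log2 FC 1.98, SE 0.049, edgeR adjusted p = 4.98e-16), its crosslinking enzyme Lox 76.3, 69.8 and 75.2 against 385, 384 and 370.4 CPM (log2 FC 2.39, SE 0.05, edgeR adjusted p = 4.01e-17), and the microfibril gene Fbn2 978 against 1946 CPM, while Fbn1 at 438 against 437 CPM was not called. Basement membrane genes lay the other way, with 7 lingual and 1 buccal calls among 19: Lama1, a laminin chain, had 72.4, 73.1 and 81.3 against 14.5, 13.9 and 15.1 CPM (log2 FC -2.36, SE 0.063, edgeR adjusted p = 1.31e-15), Frem1 424 against 199 and Fras1 131 against 57.1 CPM, and the exception was Hmcn1, hemicentin 1, with 113 against 332 CPM. Part of that list is made by epithelium, whose markers were also higher in the lingual part (given below with their values), and their part in the result was not tested.

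Collagen genes gave 10 lingual and 16 buccal calls among 42. Buccal were the main fibrillar chains Col1a1 (2142, 2371 and 2366 against 3535, 3364 and 3535 CPM; log2 FC 0.63, SE 0.048, edgeR adjusted p = 4.95e-09) and Col1a2 (2947 against 4318 CPM), with Col5a1, Col6a1 and Col6a6 (6.46 against 57.4 CPM), while Col3a1 at 3819 against 4323 CPM was not called. Lingual were the short-chain collagen gene Col8a1 (191, 185 and 196 against 41.7, 39 and 38.7 CPM; log2 FC -2.24, SE 0.05, edgeR adjusted p = 1.19e-16) and the cartilage chains Col2a1 (238 against 112 CPM), Col9a1 (8.77 against 1.95 CPM) and Col11a2 (42.9 against 23 CPM). Per kilobase of exon, Col1a1 had 349 and 529.9 CPM per kb, against 25.7 and 12.1 for Col2a1, lingual and buccal. Proteoglycan genes gave 8 lingual and 10 buccal calls among 32. Dcn (decorin) had 121, 124 and 119 against 535, 521 and 536 CPM (log2 FC 2.15, SE 0.044, edgeR adjusted p = 3e-17), Bgn (biglycan) 399 against 715 CPM and Lum (lumican) 239 against 368 CPM. Dcn, Lum and Kera are neighbours within 134 kb of chromosome 10, and each was a buccal call, with log2 FCs of 2.15, 0.65 and 5.01. The lingual proteoglycans were led by Spock1 (74.3 against 24.3 CPM) and Spock2 (138 against 51.9 CPM), and Vcan (versican) had 851 against 559 CPM with a log2 FC of -0.58.

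Matricellular genes gave 7 lingual and 9 buccal calls among 31. Postn (periostin), the most abundant of them, had 2766, 2609 and 2705 CPM in the lingual and 1237, 1244 and 1236 CPM in the buccal libraries (log2 FC -1.10, SE 0.045, edgeR adjusted p = 5.11e-13), and Tnc (tenascin C) 932, 895 and 974 against 355, 369.7 and 366 CPM (log2 FC -1.34, SE 0.047, edgeR adjusted p = 6.61e-14). Thbs1 (145 against 375 CPM), Smoc2 (83.7 against 273 CPM), Sparc (632 against 1136 CPM) and Tnn, tenascin W (45.5 against 124 CPM), were buccal, and Fn1, fibronectin, at 1566 against 1477 CPM was not called. Of the integrins, Itga11, a collagen receptor, was lingual (39.7 against 8.95 CPM) and Itga4, a fibronectin and VCAM1 receptor, buccal (13.6 against 65.3 CPM), and 13 of 23 were not called. The 43.5% of integrins called stood beside 17.5% of all tested genes. ADAMTS genes gave 6 lingual calls, led by Adamts20 (115 against 25.7 CPM), and 10 buccal calls, led by Adamtsl3 (10.0 against 46.6 CPM) and with Adamts9 at 83.4 against 268 CPM, among 23. Of 17 matrix metalloproteinase and inhibitor genes, 11 were not called, and 35.3% were. Mmp9 (198 against 66.7 CPM) and Mmp13 (1.69 against 0.243 CPM) were lingual.

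Calls in the list of bone genes lay on the lingual side. Osteoblast and mineralization genes were lingual calls for 16 of 18 tested members and buccal calls for 0, with a median log2 FC of -1.17. Their summed level was 1582 to 1637 CPM in the lingual and 725 to 749.8 CPM in the buccal libraries. Sp7 (osterix), the factor that commits cells to the osteoblast fate after Runx2, had 138, 144 and 142 against 62.5, 60.6 and 62.9 CPM (log2 FC -1.16, SE 0.044, edgeR adjusted p = 1.66e-13). Ibsp, bone sialoprotein, had 119.9, 122 and 117 against 35.2, 35 and 36.3 CPM (log2 FC -1.73, SE 0.046, edgeR adjusted p = 1.31e-15), Alpl, the alkaline phosphatase, 264 against 114 CPM, and Enpp1, which makes pyrophosphate, 112 against 21.7 CPM. Runx2 had 443 against 241 CPM, and Pth1r and Phex were not called. By in situ hybridization the study's text places Runx2 in the buccal region, and its figure legend more in the lingual mesenchyme. Bglap, Bglap2, Mepe and Sost, late genes of the lineage, did not pass the filter. The abundant matrix genes Col1a1, Col1a2, Sparc and Bgn, described above as buccal, are not in this list. In bulk tissue, more cells of a type and more RNA per cell cannot be told apart, here and below. Cartilage genes were higher in the lingual part for 10 of 15, while Acan, which defines the tissue, had 2.45 against 1.52 CPM. The Acan call (log2 FC -0.65) ended without Cap-L replicate 3 (-0.48) or Cap-B replicate 1 (-0.51), and the sole buccal call, Hapln1 (log2 FC 0.52), ended without any 1 of 4 libraries (0.48 to 0.50). Osteoclast genes were called in 1 of 8 cases, Mmp9 (2 without Cap-L replicate 2), and Acp5 at 12.9 against 15.6 CPM and Ctsk at 44.2 against 50.5 CPM were not called. Tendon genes split, Tnmd (8.66 against 2.69 CPM) and Mkx (41.4 against 18.5 CPM) lingual, Scx (2.56 against 3.88 CPM) and Fmod (15.3 against 40.3 CPM) buccal. Dental papilla and follicle genes gave 6 lingual calls, among them Tfap2b (432 against 186 CPM) and Smpd3 (79.1 against 32.8 CPM), and 5 buccal ones among 19.

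Contractile genes of skeletal muscle were buccal nearly throughout. Of 32 contractile genes tested, 31 were buccal calls and 0 lingual ones, with a median log2 FC of 2.88, and the remaining one was the myosin light chain gene Myl3 at 0.462 against 0.491 CPM. Their summed level was 525 to 548 CPM in the lingual and 1328 to 1347 CPM in the buccal libraries, of which the widely expressed tropomyosin genes Tpm1 (401 against 817 CPM) and Tpm2 (81.4 against 132 CPM) made up most. Myod1 (chromosome 7, 46025898 to 46028523), the myogenic master regulator, had 0.429, 0.473 and 0.53 CPM in the lingual and 14.1, 12.7 and 12.8 CPM in the buccal libraries (log2 FC 4.80, SE 0.14, edgeR adjusted p = 4.39e-15). Myog, which drives differentiation, had 1.93, 1.92 and 2.01 against 24.8, 19.6 and 24.7 CPM (log2 FC 3.58, SE 0.11, edgeR adjusted p = 1.64e-14). Myh3, the embryonic myosin heavy chain, had 2.32, 2.56 and 2.47 against 46.3, 41.1 and 46.9 CPM (log2 FC 4.21, SE 0.085, edgeR adjusted p = 2.98e-17), and its neighbours Myh2, Myh1, Myh4 and Myh8 within 230 kb of chromosome 11 were buccal calls too, of which Myh1, Myh2 and Myh4 stood at or near the floor in the lingual libraries. The sarcomere genes Actc1 (5.58, 4.9 and 4.24 against 91.2, 84.8 and 84.3 CPM; log2 FC 4.17, SE 0.074, edgeR adjusted p = 5.14e-18) and Ttn (3.36 against 42.7 CPM), the acetylcholine receptor gene Chrna1 (0.751, 0.445 and 0.388 against 5.69, 4.98 and 5.25 CPM) and the fusion gene Mymk (0.165 against 2.68 CPM) followed. Of the myogenic regulators 13 of 19 were buccal, and 2 were lingual, among them Mef2c (147 against 94.6 CPM), which other tissues express as well. The summed level of this list was higher in the lingual part, at 397 to 416 against 350.3 to 364 CPM. No library of the 2 groups overlapped in Myod1, Myog, Myh3 or Actc1, as for 52.4% of all tested genes. The rule that named Myod1, Myh3 and Actc1 among the largest calls required it.

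The promoter windows of muscle genes were searched for CAGCTG, a form of the E-box to which myogenic bHLH factors are known to bind. It reads the same on both strands. In the RefSeq windows of 300 bases (250 before and 50 after a start, GRCm38.p6), 33 of the 36 contractile genes had a window, and 16 of the 33 (48.5%) held the motif, as did 18.3% of the 27025 genes with a window. Of the 16 genes with the motif, Ckm, Mb and Myl2 were not tested in these libraries. By window the shares were 47.5% of 40 and 16.3% of 32851. Among the myogenic regulators 3 of 11 genes with a window (27.3%) held it. The 250 bases before the start of 3 buccal genes are shown with the motif in capitals, chosen since they hold it in a contractile gene at 1 site (Acta1, skeletal actin; 1.85 against 12 CPM, log2 FC 2.72), a contractile gene at 2 sites (Tnnt2, cardiac troponin T; 0.696 against 5.98 CPM, 3.11) and the acetylcholine receptor gene Chrna1 at 2 sites (log2 FC 3.36). A further RefSeq start of Tnnt2, whose 250 bases hold 0 matches, is not shown.
Acta1 (GRCm38.p6 chr8:123894776-123895025, - strand): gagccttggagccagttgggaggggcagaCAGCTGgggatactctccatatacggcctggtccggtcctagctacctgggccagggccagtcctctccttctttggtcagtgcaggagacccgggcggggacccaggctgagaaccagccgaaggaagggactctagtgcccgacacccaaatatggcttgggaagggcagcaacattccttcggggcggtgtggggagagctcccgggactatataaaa
Tnnt2 (GRCm38.p6 chr1:135836084-135836333, + strand): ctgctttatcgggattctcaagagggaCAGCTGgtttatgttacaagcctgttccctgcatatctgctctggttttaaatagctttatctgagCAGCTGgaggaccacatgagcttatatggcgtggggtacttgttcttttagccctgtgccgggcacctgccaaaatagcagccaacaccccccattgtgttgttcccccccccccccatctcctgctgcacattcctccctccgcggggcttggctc
Chrna1 (GRCm38.p6 chr2:73580339-73580588, - strand): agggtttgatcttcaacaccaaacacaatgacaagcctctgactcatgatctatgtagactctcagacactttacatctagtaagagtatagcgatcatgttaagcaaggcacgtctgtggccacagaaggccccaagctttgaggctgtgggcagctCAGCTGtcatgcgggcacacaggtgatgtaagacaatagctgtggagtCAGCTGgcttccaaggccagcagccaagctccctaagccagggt
A match is a description of the sequence and not of binding, and the shares do not depend on these libraries.

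**Figure D4:**
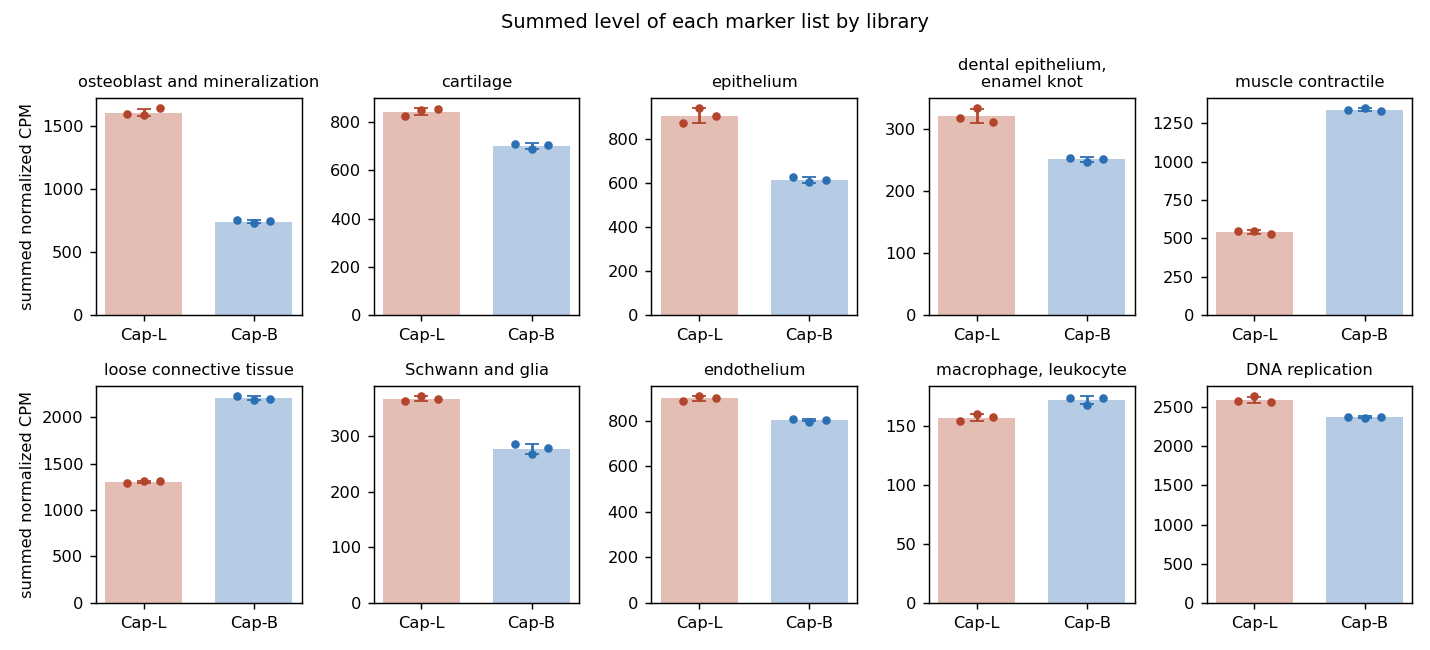
Summed normalized CPM of 10 marker lists in the Cap-L (red) and Cap-B (blue) libraries, with points for libraries, bars for the mean of 3 and lines for the SD; the vertical axes start at 0 and differ between panels. Bone, cartilage and epithelial sums are higher in every Cap-L library, contractile and connective tissue sums in every Cap-B library, and the DNA replication sum is 2569.6 to 2640.0 against 2363 to 2379 CPM.

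Epithelial genes were present in both parts although the epithelium had been removed. Of 25 tested, 16 were lingual and 0 buccal calls, and in a fit of all 24 libraries 7 were lingual. The median log2 FC there was -0.68 against -0.66, and the adjusted p were larger. Their sum ranged from 872 to 939.8 CPM in the lingual and from 603 to 629 CPM in the buccal libraries. Epcam had 23.6, 23.6 and 20.2 against 11.8, 12.8 and 12.2 CPM (log2 FC -0.85, SE 0.076, edgeR adjusted p = 4.26e-08) and the E-cadherin gene Cdh1 25 against 14.6 CPM, while Krt5, a basal keratin, at 159 against 152 CPM and Krt15 at 55.2 against 55.5 CPM were not called. Of 14 dental epithelium and enamel knot genes, 10 were lingual and 2, Lef1 and Fgf9, buccal. Fgf20, Wnt10b, Wnt10a, Bmp2, Edar, Irx1, Foxi3 and Sox2, described above as lingual, are in this list, and the part of the epithelial RNA in those differences was not tested.

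Loose connective tissue genes were buccal for 10 of 15 and lingual for 1, with a median log2 FC of 0.93. Thy1 had 7.01, 7.93 and 8.05 against 38.8, 37.3 and 39 CPM (log2 FC 2.34, SE 0.067, edgeR adjusted p = 3.61e-15), the dermatopontin gene Dpt 8.56 against 38.4 CPM and Cd34 80.4 against 166 CPM, while Pdgfra, a general fibroblast receptor, at 313 against 373 CPM was not called, and the lingual call was Ly6a (3.12 against 0.267 CPM). Schwann cell genes gave 11 buccal and 5 lingual calls among 20: Sox10 had 4.15, 4.7 and 4.06 against 12.2, 12.7 and 12.9 CPM (log2 FC 1.57, SE 0.091, edgeR adjusted p = 8.77e-11), and the neuregulin receptor gene Erbb3 11.7 against 28.8 CPM, on the buccal side, and Ngfr, Kit (44.3 against 19.1 CPM) and S100b (3 against 0.989 CPM), which other cells express too, on the lingual side. The summed level of this list was higher in the lingual part, 364 to 372 against 268 to 286 CPM, and Ngfr with Kit made up much of it. Of 14 neuronal genes, 4 were buccal, Snap25 (2.11 against 13.3 CPM) and Gap43 (23.3 against 60.9 CPM) among them, and Stmn2 (8.33 against 4.93 CPM) was lingual (2 genes without any 1 of 4 libraries). Smooth muscle and pericyte genes gave 6 buccal calls among 15, with the smooth muscle actin gene Acta2 at 11.2, 11.6 and 10.6 against 83.9, 82.9 and 82.9 CPM (log2 FC 2.93, SE 0.055, edgeR adjusted p = 8.47e-18), and Rgs5, the pericyte marker, was lingual with 54.5, 55.3 and 54.9 against 16.7, 19 and 17.3 CPM (log2 FC -1.61, SE 0.058, edgeR adjusted p = 7.47e-14). Of 9 adipocyte genes 3 were lingual, Dlk1 included, and 2 buccal (1 without any 1 of 3 libraries), and Adipoq and Plin1 did not pass the filter.

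Vessel, blood and proliferation lists lay under the background of 17.5% called. Of 24 endothelial genes 1 was called, Prox1, a lymphatic factor that muscle and nerve also express (1.67 against 8.22 CPM, buccal). Pecam1 at 71.9 against 70.2 CPM, Cdh5 at 148 against 129 CPM and Kdr at 93.2 against 90.6 CPM were not called. Macrophage and leukocyte genes gave 2 calls of 21, Ptprc and Cd14, both buccal, with Csf1r at 23.1 against 23.6 CPM not called. Globin and erythroid genes gave 1 of 16, Gata1 at 0.265 against 0.561 CPM, whose log2 FC of 1.06 became 0.90 to 1.02 and lost its call without either of Cap-L replicates 1 and 3 or Cap-B replicates 1 and 2. The globin gene Hbb-y had 411 against 460.1 CPM. None of 38 DNA replication genes, 33 mitosis genes or 14 RT-qPCR reference genes was called by edgeR. At an unadjusted edgeR p under 0.05 and with no limit on the fold, 19 DNA replication genes, 12 mitosis genes and 6 reference genes differed. At an adjusted p under 0.05, with folds within the limit, they were 15, 8 and 4. Of all 20653 genes tested, 4268 lingual and 4477 buccal ones passed that adjusted p with no limit on the fold. These counts alone thus do not set the 3 lists apart. DESeq2 called 0, 0 and 0 of the lists. The median log2 FCs were -0.094, 0.052 and -0.088. Mki67, a marker of cycling cells, had 298 against 356 CPM, Pcna 26.6 against 23.1 CPM and the reference gene B2m 67.8 against 61.2 CPM. Immediate early genes gave 6 lingual and 2 buccal calls among 22: Myc, a growth regulator, had 82.5, 88.3 and 85.5 against 23, 23.8 and 23.8 CPM (log2 FC -1.84, SE 0.05, edgeR adjusted p = 1.79e-15) and Jun 467 against 286 CPM, both lingual, the heat shock genes Hspa1a and Hspa1b were buccal, and Fos at 742 against 754 CPM and Egr1 at 1598 against 1802 CPM, the usual responders to dissection, were not called. The immediate early list had 36.4% of its members called. Its summed level was 5606 to 5824 CPM in Cap-L and 5212 to 5337 CPM in Cap-B, against 1631 to 2068 CPM in Cap-W. The part of dissection in these levels was not tested. Glycolysis and hypoxia genes gave 3 lingual and 2 buccal calls among 25, Slc16a3 (37 against 22.4 CPM) and Hk2 (62.4 against 39.7 CPM) on the lingual side. The 20.0% called in that list was near the background of 17.5%.

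The side differences were followed to the bell stage and into culture, in comparisons that share no library with the cap stage one. At the bell stage 12.9% of 21181 tested genes were called, 6.88% lingual and 6% buccal, and in the cultured parts 25.1% of 21195, 12.5% each way. Of the 1467 lingual calls at the cap stage, 600 (40.9%, and 41.2% of the lingual calls at the bell stage) were called in the same direction at the bell stage and 32 in the opposite one. For the 2144 buccal calls these were 691 (32.2%, and 54.4% of the buccal calls at the bell stage) and 78. In culture, 878 lingual calls (59.9%, and 33.0% of those in culture) and 1050 buccal calls (49.0% and 39.5%) were called in the same direction, and 70 and 115 in the opposite one. The interaction of side with stage passed an adjusted p under 0.05 for 32.5% of 21931 genes and that of side with culture for 35.5% of 22098.

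Single genes took different courses. Tspan8 and Hand2 had log2 FCs of -5.08 and -5.16 at the bell stage, and their interactions did not pass (edgeR adjusted p = 0.518 and 0.193). Prdm16 went from -3.52 at the cap stage to -0.15 at the bell stage, an interaction of 3.36 (edgeR adjusted p = 4.27e-18), and was at -3.07 in culture. Runx2 also lay closer to 0 at the bell stage, going from -0.85 to -0.15 (edgeR adjusted p of the interaction = 2.54e-11), with -1.24 in culture. The osteoblast list as a whole had a median of -0.15 at the bell stage and -1.59 in culture, against -1.17 at the cap stage. On the buccal side, Tbx15 had 2.37 at the cap stage, 2.41 at the bell stage (interaction 0.039, edgeR adjusted p = 0.684) and 2.86 in culture. Dcn went from 2.15 to 0.31 at the bell stage and 0.89 in culture (edgeR adjusted p of the interactions = 8.37e-22 and 7.1e-18). Mybpc1 and Avpr1a were lingual calls at the bell stage, with -0.98 and -0.67 (edgeR adjusted p of the interaction = 4.94e-20 and 1.09e-16), while Myh3 was at 3.91. The contractile list had a median of 2.82 at the bell stage and 3.49 in culture.

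**Figure D5:**
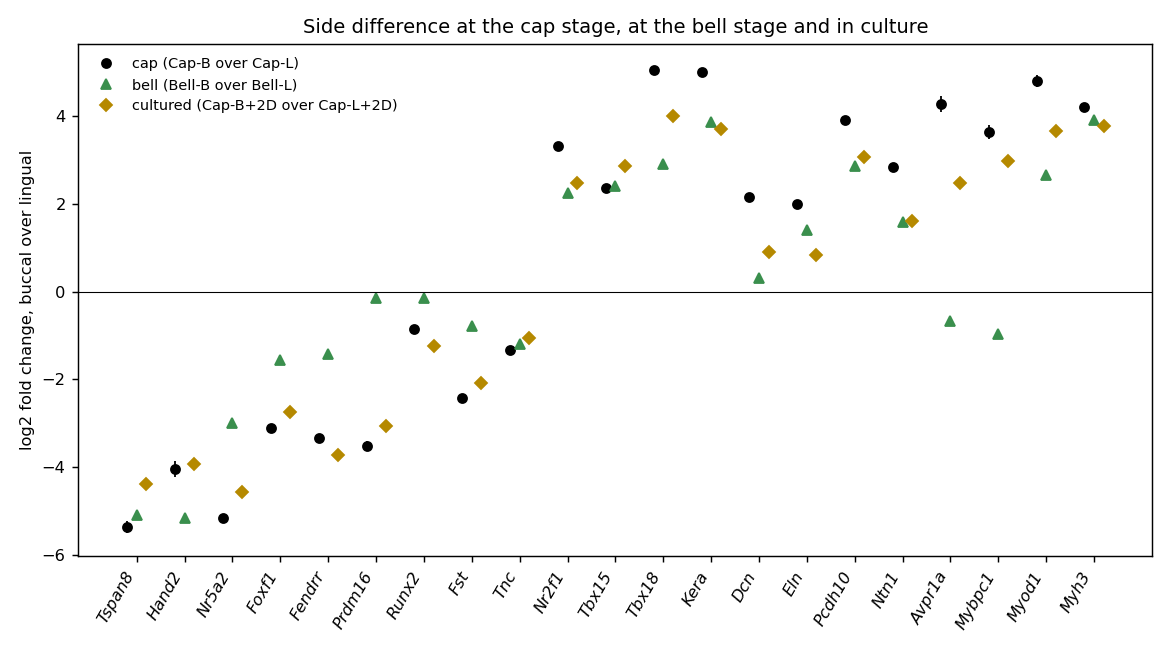
Log2 fold change, buccal over lingual, of 21 genes at the cap stage (black circles with the standard error), at the bell stage (green triangles) and after 2 days of culture (yellow diamonds). Each comparison has 3 libraries a side. Prdm16 and Runx2 lie near 0 at the bell stage alone, Tbx15, Tnc and Myh3 lie close together at the 3 points, and Avpr1a and Mybpc1 lie on the lingual side at the bell stage.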

How the data were processed

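Polyadenylated RNA of 24 libraries in 8 groups of 3 was sequenced, of which the 6 uncultured cap stage libraries of the lingual and buccal parts are the subject here. The deposited file holds counts of read pairs per gene, made by the authors with featureCounts 2.0.0 (per the file headers: paired mode, strand not used, pairs touching several genes or places left out) on the Ensembl annotation of GRCm39. The submitters' processing notes name Trimmomatic 0.39, Bowtie 1.2.3 and Subread 2.0.3, and the study's methods another trimmer, aligner and library kit, so these steps could not be settled. Since strand was not used, overlapping and antisense genes share uncertainty.

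Groups came from the sample labels. Genes passing edgeR's filterByExpr were fitted with edgeR 4.0.16 (R 4.3.3; TMM, quasi-likelihood test, Benjamini-Hochberg over all genes tested) on the libraries compared, with a fit of 12 libraries for each interaction of side with stage or culture. DESeq2 1.42.0 and the other settings served as alternatives. On simulated counts of the cap stage comparison (20528 genes, 200 changed by 2-fold or 4-fold) edgeR recovered all of the changed genes and made 5 false calls. The changed genes left out those at low levels, and all genes were given the same spread. Smaller folds, low genes and a library that stands apart were thus not covered. CPM were normalized over all 24 libraries, fold changes in the fit itself. Members and lists were chosen with earlier results of these data known. Named were, within each list, the called members of largest fold, the most abundant and the defining ones, and 15 genes a direction by fold; other members named beside a count of 5 or fewer were chosen after their values were seen. Promoter windows and the E-box search used RefSeq sequence of GRCm38.p6, matched by symbol. Some genes that the rule names are not reported here. Placing the undivided mesenchyme was an addition made after seeing the data.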

Additional observations from a re-analysis of the deposited data

Results flagged for a closer look

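Among the named genes, 11 had a side difference that changed by more than 3 on the log2 scale from the cap stage to either the bell stage or culture, by the interaction in edgeR (groups of 3 libraries are too small for a test of single outlying samples). The sides differed less or the other way at the bell stage for 6 genes. The interaction was -4.94 for Avpr1a, whose log2 FC went from 4.27 to -0.67, and -4.61 for Mybpc1, from 3.63 to -0.98. It was -3.75 for Shisa9, from 3.80 to 0.06, and -3.08 for Epha6, from 5.53 to 2.45. For Prdm16 it was 3.36, from -3.52 to -0.15, and for Mmp13 it was 3.26, from -2.78 to 0.47. The edgeR adjusted p of these 6 interactions ran from 4.94e-20 (Mybpc1) to 0.00202 (Epha6).

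In culture, 3 basal keratin genes moved toward the lingual part. The interaction was -5.96 for Krt15 (log2 FC 0.031 at the cap stage and -5.93 in culture), -4.22 for Krt5 (-0.045 and -4.26) and -3.13 for Krt14 (-0.76 and -3.89). The hedgehog genes Hhip and Dhh did so as well: Hhip changed by -3.77, from 1.61 to -2.15, and Dhh by -3.60, from 3.10 to a value not tested in culture alone because of its low counts. The edgeR adjusted p of these 5 interactions ran from 7.27e-28 (Krt15) to 0.000615 (Dhh). These 3 keratins thus differed far more between the cultured than between the uncultured parts, and the part of epithelial RNA in the culture values was not tested.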

How the results depend on the processing

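Counts at the cap stage moved most with the limit on the fold. Without it 4268 genes were lingual and 4477 buccal calls, and with an absolute log2 FC over 1 they were 641 and 1121. Every other setting kept both counts within 1.5 times of 1467 and 2144: other scalings (RLE, upper quartile, library totals, centring), DESeq2, weaker and stricter filters on low counts, a fit of all 24 libraries, and leaving out the 100 most abundant genes. The lingual share of calls was 40.1% to 42.9% over these settings, 39.3% to 41.6% where a library was left out, 48.8% without the limit on the fold and 36.4% with the stricter one. DESeq2 called 3175 genes, 3170 of them among edgeR's 3611. Leaving out each library in turn gave 1416 to 1489 lingual and 2037 to 2299 buccal calls, 6307 to 7487 genes (of 7135) whose side difference changed from the cap to the bell stage, 6959 to 8278 (of 7842) for culture, and 1263 to 1328 (of 1291) and 1884 to 1959 (of 1928) cap stage calls shared with the bell stage and with culture. In all, 2814 genes were called in each of the 6 fits that left out a cap stage library.

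The replicate numbers did not pair the libraries: same-numbered lingual and buccal libraries had correlations of 0.005, -0.029 and -0.011 in their deviations from the group means. With the replicate block there were 1445 lingual and 2117 buccal calls, 6880 and 7867 interactions, and 1292 and 1909 shared calls; no count left 1.5 times its value.

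Direction changed only for named genes that were not called. On the log2 scale Fbn1 was at -0.0029 with library totals, -0.006 with no filter, -0.0052 in the fit of all 24 libraries and -0.057 to 0.082 without a library, and Pth1r at -0.0037, -0.0073, -0.005 and -0.014 to 0.063. Pecam1 was at 0.0016 under the stricter filter and -0.033 to 0.0047 without a library. Without a library, Csf1r was at -0.027 to 0.11, Fn1 at -0.14 to 0.0066, Kdr at -0.061 to 0.02 and Myl3 at -0.48 to 0.40. Single calls also changed. The fit of all 24 libraries ended those of Acan, Cdh1, Gata1, Krt14, Scx, Stmn2 and Wnt10a with adjusted p of 0.0652 to 0.438 at nearly the same folds (Cdh1 -0.75 and -0.78, Scx 0.61 and 0.59), and those of Hapln1 (0.52 and 0.49) and Sox8 (0.52 and 0.50) near the fold limit. DESeq2 ended that of Gata1, library totals that of Hapln1, and no filter on low counts those of Hapln1 and Sox8, while Barx1 was called after centring or a stricter filter. The cause was not tested. Depth limits the low genes: those at or under the floor of 3 counts in a group are given by their levels.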

Other observations

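The undivided mesenchyme of the same stage, Cap-W, was set beside the called genes, without a test and after the values had been seen. Its mean lay between the 2 sides for 712 of the 1467 lingual calls (48.5%) and 990 of the 2144 buccal calls (46.2%). Of the others, 392 lingual calls were above and 363 below both sides in Cap-W, and 199 buccal calls above and 955 below. Whole lists stood apart from both sides there too: the immediate early genes summed to 1631 to 2068 CPM, against 5606 to 5824 in Cap-L and 5212 to 5337 in Cap-B, and the collagens to 11298 to 11867 CPM, against 18913 to 19858 and 23538 to 24502. On the line from the lingual mean (0) to the buccal mean (1), the Cap-W mean of 361 buccal calls with an absolute log2 fold change over 1 and an average log2 CPM of at least 2 had a median place of 7.12e-05, and 82.3% of them lay below 0.25, near the lingual level or under it. For the 278 lingual calls of the same size the median place was 0.544, with 32.4% below 0.25 and 34.5% above 0.75. Cap-W libraries held Tbx18 at 3.59 to 7.96 CPM (lowest to highest of 3), Kera at 0.625 to 1.84, Col14a1 at 3.42 to 4.47 and Myod1 at 0.494 to 1.45, with Tbx18 and Myod1 near the lingual level and Kera and Col14a1 below every lingual library. The contractile sum was 385 to 490.5 CPM and the connective tissue sum 935 to 989 CPM in Cap-W, both under every library of either side. Foxf1 was at 165 to 279 CPM there, near the lingual level, and Nr5a2 at 20.2 to 37.9 and Tspan8 at 8.16 to 12.5 CPM, between the sides. The cause of the difference in place was not tested.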
